A study of Mus musculus with 8 samples.

Results

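The nuclear lamina and LINC complex genes are 10 genes chosen by symbol: the lamins Lmna, Lmnb1 and Lmnb2, the inner nuclear membrane proteins Lbr and Emd, the SUN proteins Sun1 and Sun2, and the nesprins Syne1, Syne2 and Syne3. They were found as 10 of the 45706 gene lines of a count table from RNA-seq of mouse muscle stem cells, and all 10 passed the filter on low counts. The table held 3 libraries of cells cultured for 48 h and 5 libraries of freshly isolated cells. All cells were sorted from the hindlimbs of wild-type C57BL/6 females, 8 to 12 weeks old, as α7-integrin and CD34 positive and as negative for CD45, Sca1, CD31 and CD11b. The cultured cells had been kept on a hydrogel of 12 kPa, and the labels give a medium of 20% fetal bovine serum, 40% low-glucose medium and 40% F-10. The 3 cultured libraries shared a sequencing run (run 2) with fresh replicates 4 and 5, while fresh replicates 1 to 3 were sequenced in another run (run 1). The labels do not say that each library had its own animals or culture dish, so the p-values cover only the scatter among these libraries, and part of that scatter may be technical.

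The lamina is a meshwork of lamin filaments under the inner nuclear membrane. It holds the shape of the nucleus, anchors chromatin and, through the A-type lamins, sets much of its stiffness. The LINC complex joins it to the cytoskeleton: SUN proteins span the inner membrane, and the KASH tails of nesprins in the outer membrane bind them in the space between. In skeletal muscle, mutations of lamin A/C, emerin and nesprins cause forms of Emery-Dreifuss muscular dystrophy in people, and the complex positions nuclei in the muscle fibre.

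After 48 h of culture the 3 nesprin transcripts fell together, Syne2 by 10.3 times, Syne3 by 7.74 times and Syne1 by 6.87 times in the fitted model. The B-type lamin transcript Lmnb1 rose by 4.45 times. Transcripts of the other B-type lamin, the A-type lamin, Lbr, emerin and both SUN proteins did not pass the test. The adjusted p of 0.05 was thus passed by 4 of the 10 genes, 1 higher and 3 lower in cultured cells (edgeR's quasi-likelihood F-test on run and culture, Benjamini-Hochberg over all 19054 genes tested). Among all genes tested, 26.9% passed, 8.87% higher and 18.0% lower in cultured cells, so a share of 4 in 10 is read against that background. The split of all genes depended on the scaling, with 1691 higher and 3431 lower in culture with scaling factors and 2452 higher and 2857 lower without them. The median log2 fold change was -0.23 over the 10 genes and -0.21 over all genes tested.

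**Figure D1:**
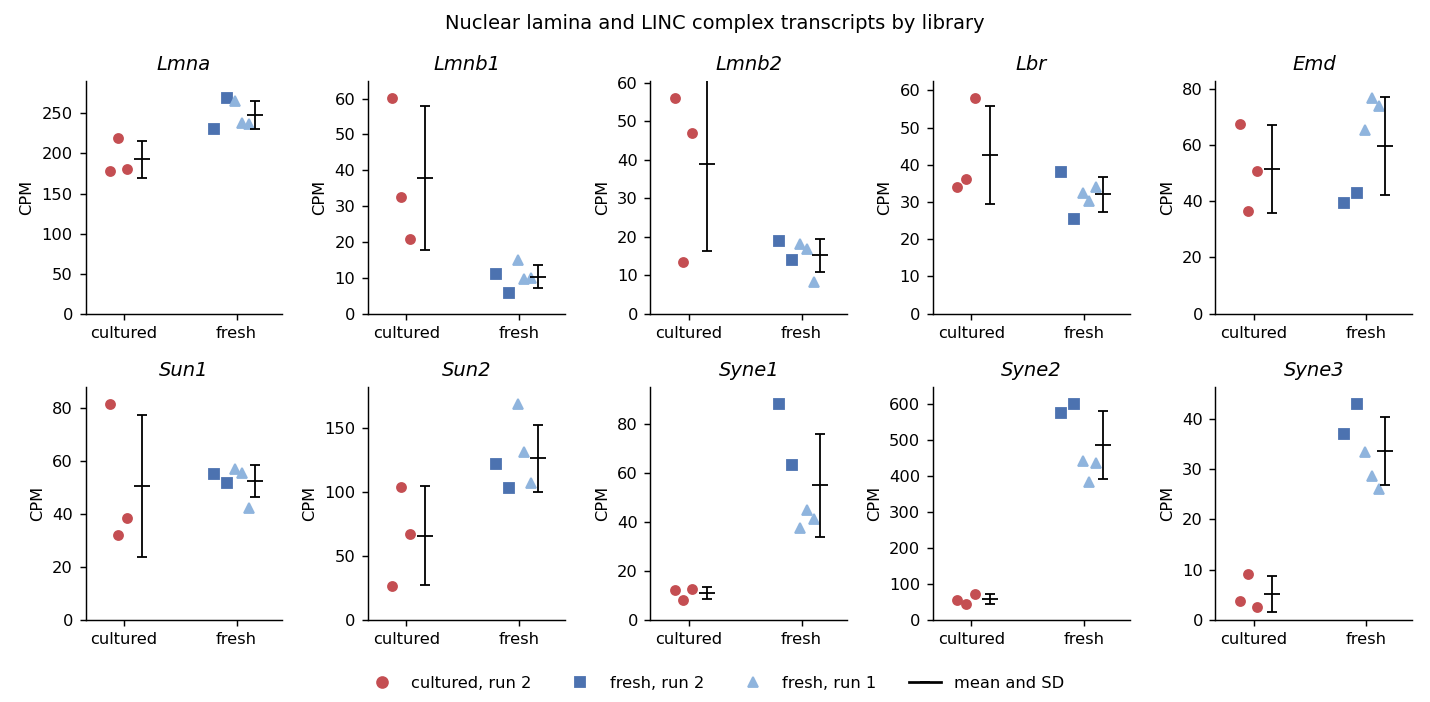
Level of each gene in CPM (a gene's count over the library's total count after scaling; linear axes from 0) in the 3 cultured and 5 fresh libraries, with run marked by symbol and the mean and SD beside the points. Syne1, Syne2 and Syne3 lie lower in every cultured library than in any fresh one, Lmnb1 lies higher, and the cultured libraries are widely spread for Lmnb2, Sun1 and Sun2.

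Depth was similar across groups, at 16654628 to 20068199 counts in cultured and 13919508 to 20055228 counts in fresh libraries. Genes with any count numbered 15424 to 17865 in cultured, 20491 and 20909 in run-2 fresh and 32766 to 34743 in run-1 fresh libraries. Mitochondrial ribosomal RNA took 11.1 to 18.4% of counts in cultured, 23.2 and 26.5% in run-2 fresh and 5.25 to 10.5% in run-1 fresh libraries. Of 8 muscle stem cell markers, 5 fell, 1 rose and 2 did not pass, and their sum was 902 to 1036 CPM in cultured and 2561 to 3519 CPM in fresh libraries. Pax7, the transcription factor that defines these cells, stood at 77.4 ± 22.2 CPM in cultured and 1160 ± 281 CPM in fresh libraries (SD, n = 3 and 5, here and for all means). Calcr, a receptor of quiescent cells, had 0, 3.24 and 1.12 CPM in cultured replicates 1 to 3, against 66.7 to 312.5 CPM in fresh libraries, and Myod1, a factor of activated cells, had 210 ± 49.3 CPM in cultured and 76.5 ± 11.5 CPM in fresh libraries. Markers of other cells were carried mostly by fresh libraries. The 6 pericyte markers summed to 0 to 11.8 CPM in cultured and 247 to 2013 CPM in fresh libraries, with Abcc9 and Kcnj8 at 0 in all cultured ones. The 5 Schwann cell markers summed to 0.0527 to 3.47 CPM in cultured and 50.8 to 806 CPM in fresh libraries, with Sox10 and Cdh19 at 0 in all cultured ones. The 5 fibro-adipogenic markers summed to 7.59 to 18.9 CPM in cultured and 550 to 940 CPM in fresh libraries, and Ly6a was at 0 in culture. The 5 endothelial markers summed to 0.721 to 41.1 CPM in cultured and 77.1 to 118 CPM in fresh libraries, and the 5 blood markers to 0.255 to 5.92 and 23.8 to 69.0 CPM. Kdr, Csf1r and Lyz2 were at 0 in all cultured libraries, as was Cldn5, which was also near 0 in fresh ones (0.0360 ± 0.0805 CPM). Pecam1, the gene of the CD31 that the sort selects against, went the other way, at 35.1, 0.103 and 38.1 CPM in cultured replicates 1 to 3, against 2.51 ± 1.95 CPM in fresh libraries (5.48 ± 1.95; adjusted p = 0.0677). It passed without cultured replicate 2 (adjusted p = 0.00323), with no low-count filter (adjusted p = 0.0441) and by DESeq2 (adjusted p = 0.00122). The 8 myofibre markers summed to 12.0 to 77.6 CPM in cultured and 26.5 to 32.1 CPM in fresh libraries. In such bulk samples, fewer cells of a type and less RNA per cell cannot be told apart. The part of other cell types in the differences below was not tested.

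Lmna encodes lamins A and C, the A-type lamins, by alternative splicing, and a gene count does not separate them. It was the most abundant of the 10 genes per length of transcript. Lmna had 178, 219 and 181 CPM in cultured replicates 1 to 3, and 265, 237, 237, 230 and 269 CPM in fresh replicates 1 to 5. Each cultured library lay below each fresh one, but the step was small, with means of 193 ± 22.8 CPM in cultured and 248 ± 17.9 CPM in fresh cells. The log2 fold change was -0.37 ± 0.21 (± SE, as for all fold changes; approximate 95% interval -0.78 to 0.04) and did not pass the test (adjusted p = 0.221). Groups that do not overlap were common, at 39.9% of all genes tested and 5 of these 10. The sign of this difference depended on the scaling: without scaling factors, which raised the median of all genes by 0.24 on the log2 scale, the fold change of Lmna was 0.04. Lmna (ENSMUSG00000028063) lies on the minus strand of chromosome 3 from 88480147 to 88509956 (mm10, also called GRCm38; this and other gene coordinates are those of GENCODE M21).

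The B-type lamins Lmnb1 and Lmnb2 stay attached to the membrane by a farnesyl lipid. Lmnb1 had 60.1, 32.6 and 20.9 CPM in cultured replicates 1 to 3, against 14.9, 9.75, 9.96, 11.1 and 5.86 CPM in fresh replicates 1 to 5. The groups did not overlap, although cultured replicate 3 stood much closer to the fresh libraries than cultured replicate 1 did. Lmnb1 (ENSMUSG00000024590, chromosome 18) rose by 2.16 ± 0.63 on the log2 scale (adjusted p = 0.0336). The call was a narrow one. Without any 1 of the 5 fresh libraries, the adjusted p lay between 0.0534 (without replicate 1) and 0.189 (without replicate 5), with log2 fold changes of 1.77 (without replicate 5) to 2.72 (without replicate 4). With run 2 alone it was 0.104.

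Lmnb2 had 55.9, 13.3 and 47.0 CPM in cultured replicates 1 to 3, and 18.0, 16.8, 8.28, 18.8 and 14.0 CPM in fresh replicates 1 to 5. Cultured replicates 1 and 3 were above all fresh libraries and cultured replicate 2 was among them. The log2 fold change of 1.24 ± 0.67 (interval -0.07 to 2.55) did not pass (adjusted p = 0.205). It passed without cultured replicate 2 (1.65; adjusted p = 0.0487) and with no run term (1.35; adjusted p = 0.0494), and was 0.94 without cultured replicate 1 (adjusted p = 0.313).

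Transcripts of dividing cells rose beside Lmnb1. The 6 genes Mki67, Top2a, Ccnb1, Ccna2, Mcm2 and Pcna were all higher in culture and summed to 1106, 1542 and 1393 CPM in cultured replicates 1 to 3, against 44.4 to 114.5 CPM in the fresh libraries. The calls of Mki67 and Pcna ended without fresh replicate 4 (adjusted p = 0.0775 and 0.0689) and without fresh replicate 5 (adjusted p = 0.0747 and 0.0638). Among the cultured libraries, that sum was lowest in replicate 1, where Lmnb1 was highest. The order of the sum is that of its largest part, Mki67, at 365, 775.5 and 740.5 CPM in cultured replicates 1 to 3. Top2a (317, 283 and 266.5 CPM) and Ccna2 (170, 131 and 102 CPM) were highest in replicate 1, while Ccnb1, Mcm2 and Pcna were not. The part of cell division in the level of Lmnb1 was not tested.

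Lbr, the lamin B receptor, ties heterochromatin to the membrane and is also a sterol reductase. It had 34.1, 36.1 and 57.9 CPM in cultured replicates 1 to 3, and 32.5, 30.3, 34.1, 38.0 and 25.5 CPM in fresh replicates 1 to 5. Only cultured replicate 3 stood above the fresh range, and the log2 fold change of 0.43 ± 0.38 (interval -0.32 to 1.18) did not pass (adjusted p = 0.450).

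Emd encodes emerin, a LEM domain protein that binds lamin A and the chromatin protein BAF. It had 67.6, 36.4 and 50.7 CPM in cultured replicates 1 to 3, and 65.5, 76.6, 74.0, 39.2 and 42.8 CPM in fresh replicates 1 to 5. The fresh libraries split by run, with run-2 libraries at the low end and all cultured libraries within or below the run-1 range. The fold change against run-2 fresh libraries was 0.33 ± 0.32 (interval -0.31 to 0.97; adjusted p = 0.496). It was -0.43 against run-1 fresh libraries alone (adjusted p = 0.280) and -0.21 with no run term (adjusted p = 0.654), so no direction can be given for Emd.

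Sun1 and Sun2 are the widely expressed SUN proteins, whose partners are the nesprins. Sun1 had 81.5, 32.1 and 38.5 CPM in cultured replicates 1 to 3, and 57.1, 55.4, 42.2, 55.3 and 51.9 CPM in fresh replicates 1 to 5. The cultured libraries lay on both sides of the fresh range. The log2 fold change of -0.08 ± 0.42 (interval -0.91 to 0.75; adjusted p = 0.936) was 0.28 without scaling factors, and 0.15 and 0.07 without cultured replicate 2 or 3.

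Sun2 had 26.7, 104 and 67.5 CPM in cultured replicates 1 to 3, and 169, 132, 107, 122 and 103 CPM in fresh replicates 1 to 5. Cultured replicates 1 and 3 were below all fresh libraries, and cultured replicate 2 was just inside their range. The log2 fold change was -0.77 ± 0.48 (interval -1.71 to 0.17; adjusted p = 0.274), with -1.22 without cultured replicate 2, -0.33 without cultured replicate 1 and -0.30 without scaling factors. An antisense gene, Gm16575, shares 147 exonic bases with Sun2 and held 1276 counts over all libraries. The sources used here do not say that counting used strand, so reads in that overlap cannot be assigned to one of them.

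The cultured libraries differed from one another in the SUN genes in opposite ways. Counts of Sun2 were 0.328, 3.23 and 1.75 times those of Sun1 in cultured replicates 1 to 3, and 1.99 to 2.95 times in the fresh libraries. Sun1 was thus more counted than Sun2 in 1 of the 8 libraries, cultured replicate 1. The highest cultured library exceeded the lowest by 3.88 times for Sun2, 2.54 times for Sun1, 4.19 times for Lmnb2 and 2.88 times for Lmnb1. Of all genes that averaged 10 CPM or more, 29.7, 46.5, 27.9 and 40.7% had a wider range than these genes in turn, so such a spread was common among these libraries. For Lmna the highest was 1.23 times the lowest, and 93.0% of genes had a wider range.

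The nesprins differ in what they hold on the cytoplasmic side. Nesprin-1 (Syne1) and nesprin-2 (Syne2) are giant proteins that bind actin, with shorter forms made from internal starts, and nesprin-3 (Syne3) binds the intermediate filament linker plectin. Syne2 (ENSMUSG00000063450, chromosome 12, 75818134 to 76110926, plus strand) had 56.2, 43.6 and 70.7 CPM in cultured replicates 1 to 3, against 441, 383, 436, 575 and 599 CPM in fresh replicates 1 to 5. The lowest fresh library was more than 5 times the highest cultured one. Syne2 fell by 3.37 ± 0.25 on the log2 scale (adjusted p = 0.000121), and by unadjusted p it ranked 53 among the 19054 genes.

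Syne3 (ENSMUSG00000054150, chromosome 12, 104929933 to 105009809, minus strand) had 3.74, 9.21 and 2.50 CPM in cultured replicates 1 to 3, against 33.4, 28.6, 25.97, 37.0 and 42.9 CPM in fresh replicates 1 to 5. Cultured replicate 2 stood above the other cultured libraries and below all fresh ones. Syne3 fell by 2.95 ± 0.58 on the log2 scale (adjusted p = 0.00696), and without cultured replicate 2 its log2 fold change was -3.67.

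Syne1 (ENSMUSG00000096054, chromosome 10, 5020917 to 5551482, minus strand) had 12.2, 8.29 and 12.6 CPM in cultured replicates 1 to 3, against 37.4, 44.8, 41.1, 88.0 and 63.4 CPM in fresh replicates 1 to 5. Both run-2 fresh libraries were above the run-1 fresh libraries, and all fresh ones were above the cultured ones. Syne1 fell by 2.78 ± 0.35 on the log2 scale (adjusted p = 0.00109). Against the run-1 fresh libraries alone, log2 fold changes were -1.84 for Syne1, -2.82 for Syne2 and -2.43 for Syne3, with adjusted p of 0.00681, 0.000942 and 0.0189. The run and culture cannot be told apart there. The calls of the 3 nesprins held without each of the 8 libraries in turn, with an adjusted p of at most 0.0391.

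**Figure D2:**
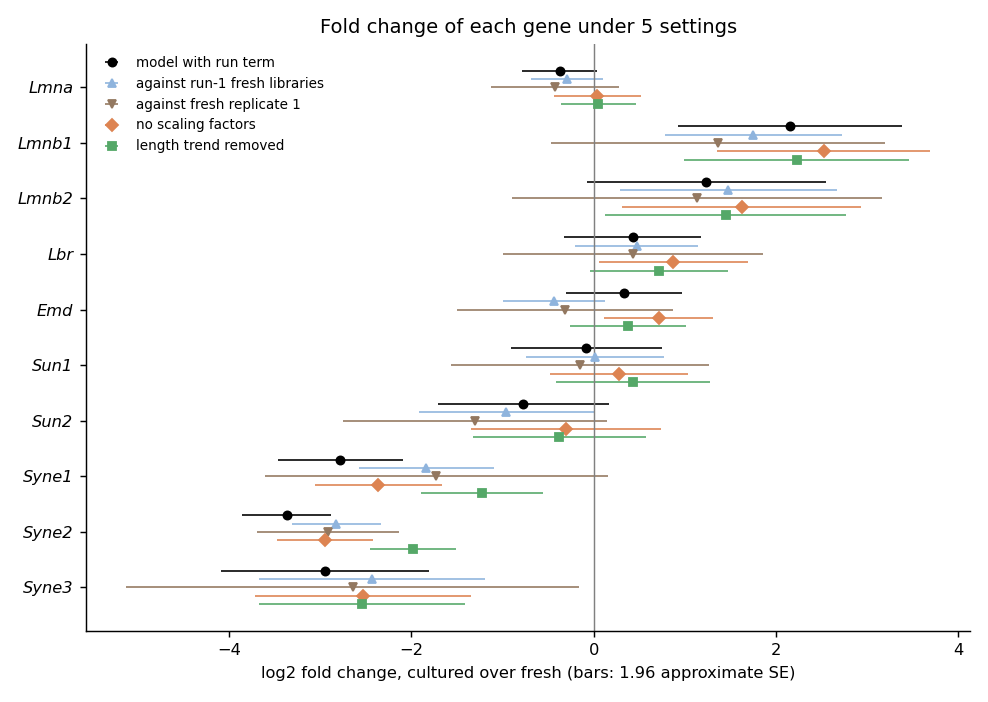
Log2 fold change of each gene, cultured over fresh, with bars of the approximate 95% interval, under 5 settings. The points of the 3 nesprins stay below 0 at every setting, from -3.37 for Syne2 in the model with a run term to -1.23 for Syne1 with the length trend removed. The bar of Syne1 crosses 0 against fresh replicate 1 alone. Points of Lmna, Sun1 and Emd lie on either side of 0.

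Fresh replicate 1 had the lowest sums of pericyte and Schwann cell markers of the fresh libraries, at 247 and 50.8 CPM, against 1198 to 2013 and 294 to 806 CPM in the other fresh libraries. The fibro-adipogenic and blood sums of fresh replicate 1 (550 and 23.8 CPM) were also the lowest of the fresh libraries. Its endothelial sum (85.6 CPM) lay within the range of the others, and all of these sums were above those of the cultured libraries. Syne1 was lowest in fresh replicate 1 of the 5 fresh libraries, at 37.4 CPM against 41.1 to 88.0 CPM in the others. Syne2, at 441 CPM against 383 to 599 CPM, and Syne3, at 33.4 CPM against 25.97 to 42.9 CPM, lay within the range of the other fresh libraries. With fresh replicate 1 as the only fresh library, the log2 fold changes were -2.92 for Syne2 (adjusted p = 0.0482), -2.65 for Syne3 (adjusted p = 0.267) and -1.73 for Syne1 (adjusted p = 0.347). That comparison was chosen after the data were seen, and the lone fresh library is assumed to vary like the cultured ones. Fresh replicate 1 is of run 1 and the cultured libraries are of run 2, so run and culture cannot be told apart there.

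Transcript length moved with the fold change. Among genes that averaged 10 CPM or more, the fifth with the shortest exons (median 1.76 kb) had a median log2 fold change of 0.48 and the fifth with the longest (median 11 kb) one of -0.43. Syne1 and Syne2 are at the far end, with 40.5 and 26.7 kb of exons, and Syne3 has 5.55 kb. A smooth mean trend on length came to -1.56 at the length of Syne1 and -1.39 at that of Syne2. With it removed, the log2 fold changes were -1.23 ± 0.34 for Syne1 (adjusted p = 0.0277), -1.98 ± 0.24 for Syne2 (adjusted p = 0.000920) and -2.55 ± 0.58 for Syne3 (adjusted p = 0.0118). The calls held, but the value for Syne1 was reduced by more than any other of the 10.

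Other giant genes gave values on both sides of 0. Of 333 genes with at least 15 kb of exons and 10 CPM, the median log2 fold change was -0.64, with 128 lower, 39 higher and 166 that did not pass. Syne2 was 45th and Syne1 53rd from the lowest of them. The 5 of them on the list of cytoplasmic partners of the LINC complex, Dst (41.2 kb), Macf1 (31.4 kb), Akap9 (21.4 kb), Plec (18.1 kb) and Dync1h1 (15.7 kb), stood at -0.87, 0.43, -0.85, 1.14 and -0.54. Dst, Akap9 and Plec passed and the other 2 did not. Macf1, a spectraplakin that joins actin to microtubules with 31.4 kb of exons, had 603.5 ± 16.9 CPM in cultured and 374 ± 74.2 CPM in fresh cells and a log2 fold change of 0.43 ± 0.20 (adjusted p = 0.142). It passed, higher in culture, without scaling factors (0.85, adjusted p = 0.0227) and with the length trend removed (1.89, adjusted p = 0.000650). It also passed against the 3 fresh libraries of run 1 alone (0.95, adjusted p = 0.00578) and without the run term (0.69, adjusted p = 0.0289). Its fresh means were 326 CPM in run 1 and 447 CPM in run 2. Against run 1 alone, run and culture cannot be told apart, and the fit without the run term does not allow for run.

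**Figure D3:**
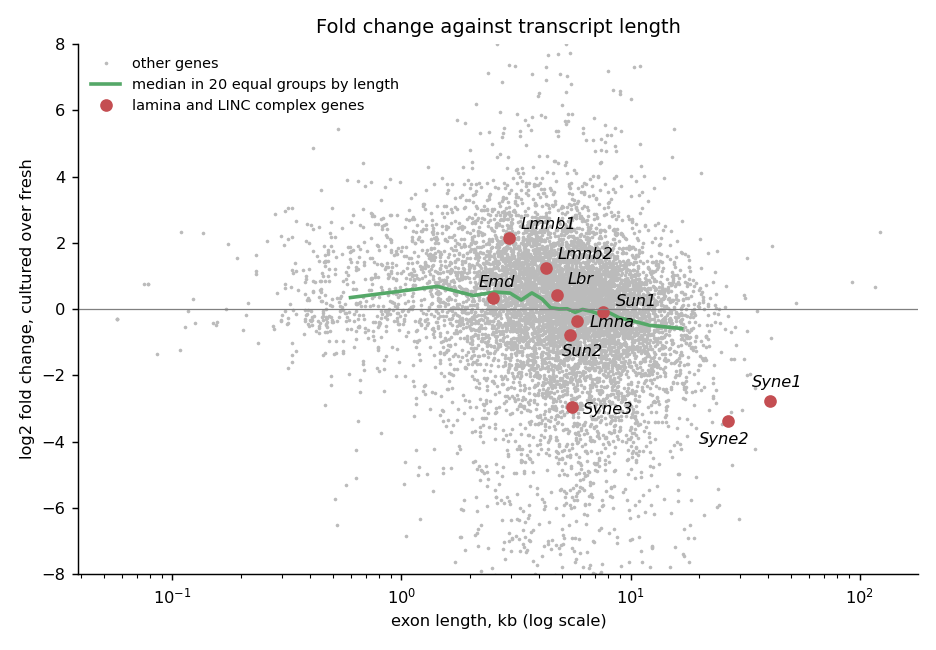
Log2 fold change, cultured over fresh, against exon length in kb (log scale) for genes averaging 10 CPM or more; the line is the median in 20 groups of equal size, and 211 genes lie beyond the vertical axis. Syne1 and Syne2, at 40.5 and 26.7 kb, lie beyond the end of the line and below its last value. Syne3 lies below the line at a common length of 5.55 kb.

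Since the 3 nesprin genes fell together, the 250 bases before their first RefSeq transcript start are shown, 5′ to 3′ on the gene's strand, from RefSeq on GRCm38.p6. Capitals mark the GC box GGGCGG or its reverse complement. The windows are chr10:5550693-5550942 on the minus strand, chr12:75818068-75818317 on the plus strand and chr12:104998678-104998927 on the minus strand.
Syne1: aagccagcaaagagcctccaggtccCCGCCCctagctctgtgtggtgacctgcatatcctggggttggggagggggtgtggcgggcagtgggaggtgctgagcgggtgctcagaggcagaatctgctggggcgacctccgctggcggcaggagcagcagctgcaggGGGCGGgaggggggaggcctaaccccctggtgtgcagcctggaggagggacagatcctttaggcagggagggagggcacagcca
Syne2: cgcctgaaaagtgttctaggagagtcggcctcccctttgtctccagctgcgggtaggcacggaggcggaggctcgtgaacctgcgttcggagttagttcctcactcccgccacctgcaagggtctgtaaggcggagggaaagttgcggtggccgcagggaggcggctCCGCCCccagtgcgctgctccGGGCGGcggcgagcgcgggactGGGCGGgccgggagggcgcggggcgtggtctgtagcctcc
Syne3: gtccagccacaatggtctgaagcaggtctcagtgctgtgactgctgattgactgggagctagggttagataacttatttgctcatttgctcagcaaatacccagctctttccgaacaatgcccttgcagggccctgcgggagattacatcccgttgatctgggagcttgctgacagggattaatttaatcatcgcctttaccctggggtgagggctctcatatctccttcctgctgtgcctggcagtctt

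These windows are unlike in composition. GC content was 68.0% for Syne1 and 70.0% for Syne2, against 51.2% for Syne3 and a median of 52.4% over all 32851 RefSeq windows. The windows also differ in position. The start for Syne3, base 104998677, lies well inside a minus-strand gene that begins at 105009809 in GENCODE. The starts for Syne1 (5550692) and Syne2 (75818318) lie near the gene's first base (5551482 and 75818134). The GC box occurred 2 times for Syne1, 3 times for Syne2 and 0 times for Syne3, and 32.7% of all windows hold it on either strand. The letters CAGCTG, an E-box that myogenic factors bind, occurred once each in the windows of Syne1 and Syne2, and 13% of all windows hold them. None of the 3 windows held CCAAT (33.8% of all windows), TATAAA (12.4%), or TTTGGCGC or TTTCCCGC, forms of the E2F site (1.30%), on either strand. Among the genes that did not pass, the first windows of Sun1 and Sun2 held 3 and 4 GC boxes and 2 CCAAT letters each. Of the 10 genes, 9 had windows in the table, 14 windows in all. Syne1 has 3 of these, the last with its start at base 5069063, inside the gene, and counts per gene do not show which start was used.

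Per kilobase of exon, fresh cells held most Lmna, at 42.5 ± 3.06 CPM per kb. Emd (23.7 ± 6.96), Sun2 (23.4 ± 4.84) and Syne2 (18.2 ± 3.54) followed, with ranges that overlapped one another. Sun1 (6.89 ± 0.790), Lbr (6.73 ± 0.973) and Syne3 (6.05 ± 1.21) formed a further group with overlapping ranges, then Lmnb2 (3.54 ± 0.997) and Lmnb1 (3.48 ± 1.10), and Syne1 was lowest at 1.36 ± 0.519 CPM per kb, its highest library within the range of Lmnb2. In cultured cells Lmna was again highest, at 33.0 ± 3.90 CPM per kb. Emd (20.5 ± 6.21), Lmnb1 (12.8 ± 6.79), Sun2 (12.2 ± 7.11), Lmnb2 (9.04 ± 5.24), Lbr (8.97 ± 2.77) and Sun1 (6.67 ± 3.53) came next, each overlapping its neighbours in this order. The 3 nesprins were last, with Syne2 at 2.13 ± 0.508, Syne3 at 0.928 ± 0.644 and Syne1 at 0.272 ± 0.0586 CPM per kb. These lengths count every annotated exon of a gene once, which understates levels of genes with short forms, and protein-coding transcripts of Syne1 range from 2.73 to 27.9 kb and of Syne2 from 0.440 to 21.7 kb.

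Ratios of counts within a library do not depend on the scaling between libraries, and 5 were compared by exact two-sided permutation tests over the 3 cultured and 5 fresh libraries, for which the smallest possible p is 0.0357. Counts of Lmna were 2.96, 6.71 and 8.64 times those of Lmnb1 in cultured replicates 1 to 3, against 17.7, 24.2, 23.7, 20.6 and 45.4 times in fresh replicates 1 to 5. The groups did not overlap, and the mean log2 ratio was 2.47 ± 0.81 in cultured and 4.64 ± 0.52 in fresh libraries. The difference of -2.16 had an exact permutation p of 0.0357, and after adjustment over the 5 ratios it did not pass (adjusted p = 0.0893). Counts of Syne1 were 0.217, 0.191 and 0.178 times those of Syne2 in cultured replicates 1 to 3, against 0.0850, 0.117, 0.0945, 0.153 and 0.106 times in fresh replicates 1 to 5. Here too the groups did not overlap, and the difference of 0.84 between mean log2 ratios of -2.36 ± 0.14 in cultured and -3.20 ± 0.33 in fresh libraries had an exact p of 0.0357 and an adjusted p of 0.0893. The ratio of Lmna to Lmnb2 overlapped between groups (difference -1.53; exact p = 0.143, adjusted p = 0.238), as did that of Sun2 to Sun1 (-0.96; exact p = 0.393, adjusted p = 0.491) and of Syne3 to Syne2 (0.22; exact p = 0.679, adjusted p = 0.679). Single cultured libraries set the size of these 3. Without cultured replicate 1 the difference was -0.0078 for Sun2 to Sun1 and -1.09 for Lmna to Lmnb2, and without cultured replicate 2 it was -1.66, -2.27 and, for Syne3 to Syne2, -0.49. Without cultured replicate 3, that of Syne3 to Syne2 was 0.80. With run 2 alone, where 3 libraries face 2 and p cannot go below 0.2, the differences were -2.46 for Lmna to Lmnb1 and 0.61 for Syne1 to Syne2.

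**Figure D4:**
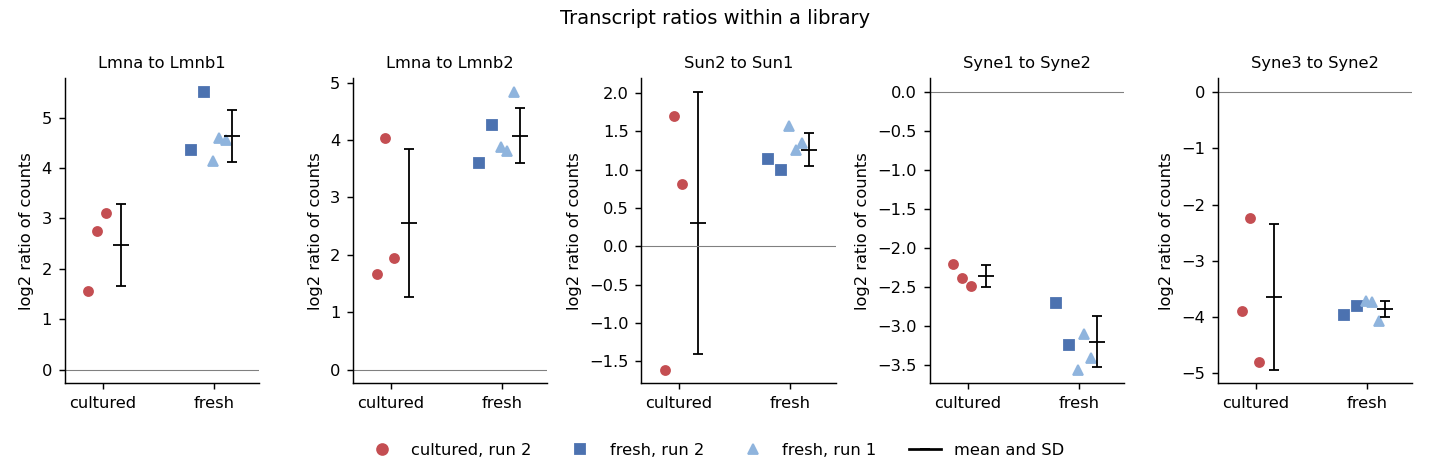
Log2 ratio of counts of a pair of genes within each library, cultured left and fresh right, with the mean and SD beside the points; the vertical axes differ and do not all start at 0. Lmna to Lmnb1 and Syne1 to Syne2 separate the groups, and the cultured libraries of the other ratios are spread across or around the fresh ones.

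The 2 runs of fresh cells were also compared, since no culture lies between them. None of the 10 genes passed in the edgeR test, against 0.189% of all genes tested, and 2 of the 10 had an unadjusted p under 0.05, against 15.5% of all genes. These were Syne1, higher in run 2 by 0.88 ± 0.34 on the log2 scale (adjusted p = 0.243), and Emd, at -0.81 ± 0.33 (adjusted p = 0.272). DESeq2 also called none of the 10 there, against 4.83% of all genes. Syne2 was at 0.48 ± 0.24 (adjusted p = 0.400).

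Among 21 listed proteins of the inner nuclear membrane and partners of the lamina, 19 were tested, of which 4 rose, 1 fell and 14 did not pass, with a median log2 fold change of 0.29, against 26.9% that passed and a median of -0.21 over all genes. Banf1, which encodes the chromatin bridge BAF that binds LEM domain proteins such as emerin, rose to 86.5 ± 11.4 CPM in cultured cells, against 22.3 ± 6.20 CPM in fresh cells (2.30 ± 0.37; adjusted p = 0.00325). The heterochromatin proteins Cbx5 (HP1α) and Cbx3 (HP1γ), of a family that binds Lbr, rose by 1.41 ± 0.31 (adjusted p = 0.0104) and 1.01 ± 0.25 (adjusted p = 0.0169) on the log2 scale. Cbx3 has processed copies in the annotation that may share its reads. Tor1b, an ATPase of the envelope lumen, had 58.3 ± 21.8 CPM in cultured and 35.6 ± 14.4 CPM in fresh cells and rose against run-2 fresh cells by 1.43 ± 0.43 (adjusted p = 0.0385). For Tor1b the value was 0.43 against run-1 fresh cells (adjusted p = 0.399) and 0.71 without the run term (adjusted p = 0.193). With run 2 alone it was 1.41 (adjusted p = 0.121), so its call held in none of these settings. Tor1aip1, the membrane activator LAP1 of those ATPases, fell to 74.2 ± 29.3 CPM in cultured cells, against 187 ± 31.4 CPM in fresh cells (-1.46 ± 0.33; adjusted p = 0.0122).

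Of 7 genes of lamin maturation, 1 rose and none fell, with a median of 0.37. Zmpste24, the protease that trims farnesylated prelamin A, rose to 112 ± 57.4 CPM in cultured cells, against 37.0 ± 7.39 CPM in fresh cells (1.83 ± 0.44; adjusted p = 0.0154). Fnta, a subunit of the farnesyltransferase that prenylates lamins, had 46.2 ± 12.2 CPM in cultured and 40.1 ± 10.95 CPM in fresh cells (0.01 ± 0.39; adjusted p = 1). Of 6 other SUN and KASH genes, 3 had too few counts to test and none of the other 3 passed in the main model. The most abundant, Spag4, averaged 0.341 ± 0.296 CPM in cultured and 3.54 ± 1.68 CPM in fresh cells, and Syne4, nesprin-4 of epithelia, had no count in culture and 0.935 ± 0.925 CPM in fresh cells. Lrmp, likewise without a count in culture, had 0.850 ± 0.592 CPM in fresh cells. Under other settings they passed, lower in culture: Spag4 by DESeq2 (adjusted p = 0.0346), and Syne4 and Lrmp without the run term (adjusted p = 0.0424 and 0.0303) and against run-1 fresh cells (adjusted p = 0.00396 and 0.00397). Lrmp also passed without fresh replicate 5 (adjusted p = 0.0159), which had no count of it. Without fresh replicate 4, which had 0.821 CPM, its log2 fold change was 0. Syne4 had 1.25, 1.135 and 2.22 CPM in fresh replicates 1 to 3, of run 1, against 0 and 0.0652 CPM in the run-2 fresh replicates 4 and 5. In the passes of Syne4, and in that of Lrmp against run-1 fresh cells, run and culture cannot be told apart. The pass of Lrmp without the run term does not allow for run.

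Of 14 cytoplasmic partners of the LINC complex, 2 rose, 2 fell and 10 did not pass, a share near the 26.9% of all genes, with a median of -0.15. Plec, the plectin that links nesprin-3 to intermediate filaments, rose to 611 ± 229 CPM in cultured cells, against 236 ± 47.5 CPM in fresh cells (1.14 ± 0.33; adjusted p = 0.0315), while Syne3 fell. Kif5b, the kinesin-1 heavy chain that moves nuclei in muscle fibres, rose to 377 ± 16.4 CPM in cultured cells, against 179 ± 34.9 CPM in fresh cells (0.83 ± 0.22; adjusted p = 0.0212). The 2 that fell were Akap9, a centrosomal and Golgi scaffold (-0.85 ± 0.25; adjusted p = 0.0333), and Dst, a spectraplakin (-0.87 ± 0.28; adjusted p = 0.0458). Both are long, and with the length trend removed they stood at 0.43 (adjusted p = 0.238) and 0.69 (adjusted p = 0.102), so no direction can be given for them.

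Of 10 genes that dissolve or reseal the envelope in mitosis, 2 rose and none fell, with a median of -0.06. Cdk1, whose kinase phosphorylates lamins at mitotic entry, had 29.1 ± 13.7 CPM in cultured and 0.761 ± 1.11 CPM in fresh cells (adjusted p = 0.00410). Vrk1, the kinase that releases BAF from chromatin, had 33.9 ± 0.731 CPM in cultured and 16.3 ± 4.65 CPM in fresh cells (1.44 ± 0.45; adjusted p = 0.0430). Without 1 library at a time, the calls of Banf1 and Cdk1 held each time. Those of Tor1b, Cbx5, Cbx3, Tor1aip1, Zmpste24, Plec, Kif5b, Akap9, Dst and Vrk1 each ended without at least 1 of the 2 run-2 fresh libraries, with adjusted p of 0.0508 to 0.255. Those of Tor1b, Vrk1 and Dst also ended without any 1 run-1 fresh library, with adjusted p of 0.0566 to 0.0824. The calls of Tor1b, Plec, Dst, Akap9 and Vrk1 also ended without at least 1 of the cultured libraries, with adjusted p of 0.0609 to 0.0938.

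**Figure D5:**
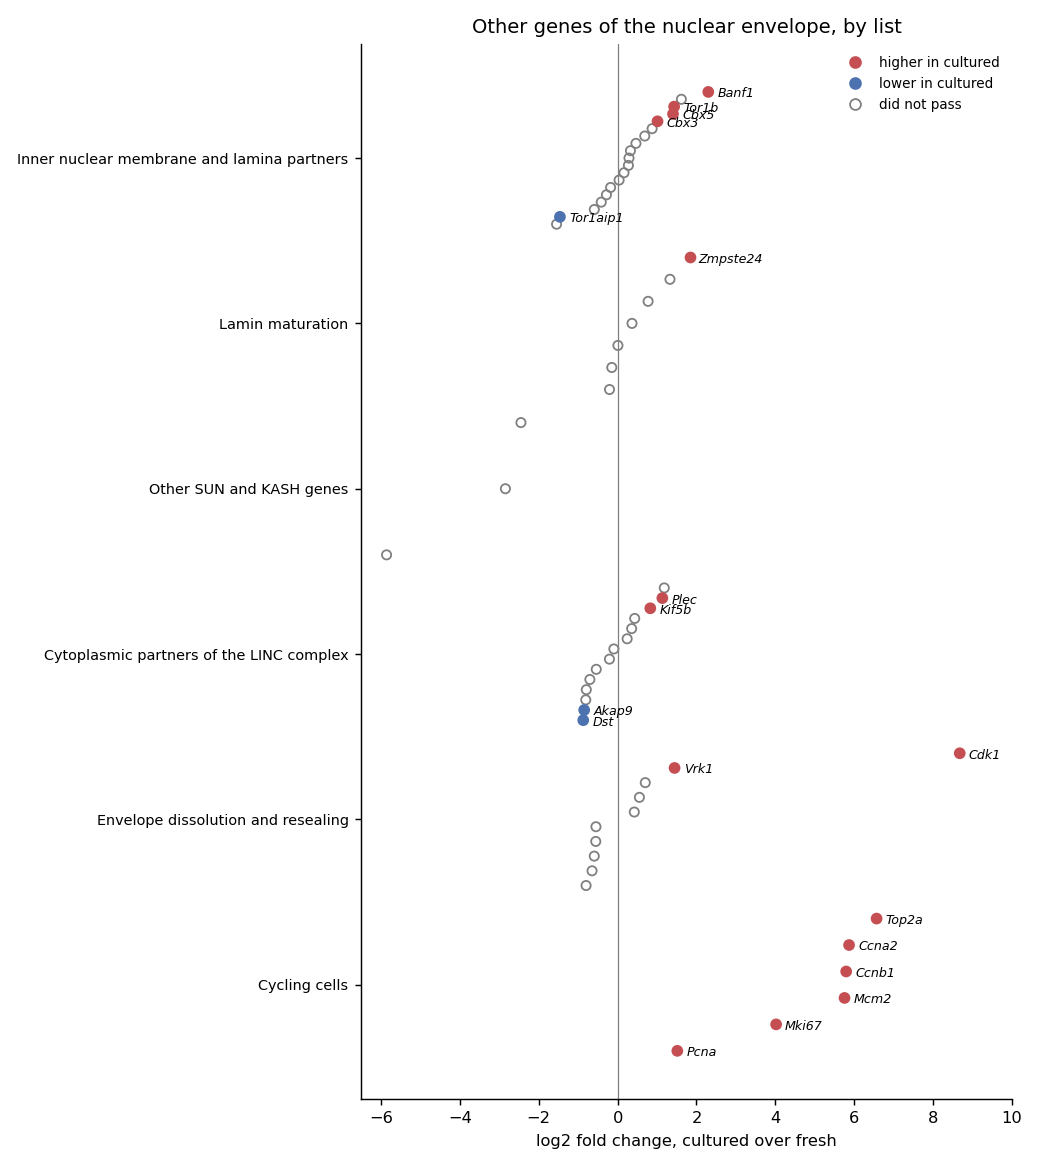
Log2 fold change, cultured over fresh, of each tested gene of 6 lists, with filled points for genes at an adjusted p under 0.05 and open points for the rest; vertical position within a list is only rank. All 6 cycling genes are higher in cultured cells, the other lists straddle 0 or did not pass, and the value of Cdk1 rests on few counts in run-2 fresh cells.

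The genes most like a lamina or LINC gene were taken from 8178 protein-coding genes with a mean of at least 10 CPM, by Pearson r of log2 CPM over the 8 libraries, which fall into 2 groups that set much of any r. Closest to Syne1 were Sat1 (r = 0.99), the spermidine acetyltransferase, Rbms3 (0.98), an RNA-binding protein, and Pcdhb16 (0.98), a protocadherin. Sat1 had 60.8, 35.0 and 49.5 CPM in cultured replicates 1 to 3, against 247, 268, 362, 652 and 553 CPM in fresh replicates 1 to 5, so it too was higher in run-2 than in run-1 fresh libraries. Closest to Lmnb1 were Ube2l3 (0.98), a ubiquitin-conjugating enzyme, Noa1 (0.98), a mitochondrial GTPase, and Dpy19l1 (0.98), a mannosyltransferase relative. Noa1 had 89.3, 39.2 and 31.2 CPM in cultured replicates 1 to 3, against 24.6, 9.02, 9.84, 10.2 and 5.41 CPM in fresh replicates 1 to 5. Closest to Lmna were Cnrip1 (0.98), a protein that binds a cannabinoid receptor, Herc1 (0.97), a giant ubiquitin ligase, and Arhgef11 (0.97). An r above 0.9 was shared by 614 genes with Syne1, 302 with Lmnb1 and 264 with Lmna.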

How the data were processed

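Expected counts for each gene came as 1 table deposited by the authors. The submitters' processing notes name STAR, RSEM and mm10, and the sources used here give neither versions nor the annotation. Per the labels' protocols, a Qiagen micro kit gave the RNA, NuGEN Ovation the amplified cDNA, and sequencing was on Illumina libraries. Of 45798 lines, 92 spike-in lines (40.9 counts in all) were left out. Of values above 0, 50.1% were not whole (tolerance 0.001), and counts were rounded. Of the members' 80 values, 52 were not whole, since RSEM shares reads between genes. Identifiers matched GENCODE M21 for 98.8%, which gave coordinates and exon lengths.

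Genes were kept by filterByExpr (19054) and scaled by TMM factors (0.790 to 1.18). The main test was the quasi-likelihood test of edgeR 4.0.16 (R 4.3.3) with run and culture as terms and 5 residual degrees of freedom. On simulated counts it recovered the sizes of set fold changes but left most of the changed genes uncalled. The simulation changed far fewer genes than passed here, so the share it missed does not describe the test on these data. No cultured library was in run 1, so fold changes compare cultured with run-2 fresh libraries, and run-1 libraries add to the spread. Each standard error is approximate: the size of the fold change over the square root of F. The 95% intervals use a normal multiple of it. DESeq2 1.42.0 was an alternative. Ratios added 1 count to each gene and used scipy 1.17.1. Alternatives were other scaling, no filter, no run term, either run alone, a replicate block, each library left out, and a length trend (loess on log2 length) removed. Replicate numbers were not shown to pair samples: deviations from group means correlated at 0.0422, -0.00482 and -0.0108 for replicates 1 to 3. The fresh means were taken over both runs, so these values cannot exclude pairing.

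Named list genes are called ones with at least 10 CPM, up to 5 a list by fold change, or else the 2 most abundant. Macf1, Dync1h1 and Lrmp, and the markers printed singly, were named after their values were seen. The members, lists and rules were chosen with earlier results of these data known. No molecular identifiers are mentioned in the labels, so counts are not independent molecules.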

Additional observations from a re-analysis of the deposited data

How the results depend on the processing

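The falls of Syne1, Syne2 and Syne3 kept direction and call under every alternative but one: with fresh replicate 1 as the only fresh library, Syne2 alone kept its call, 151 genes and 1 of the 10 passed, and Emd stood at -0.31. The rise of Lmnb1 lost its call there (1.37; adjusted p = 0.472), with run 2 alone and without each fresh library. Without scaling factors Lmna stood at 0.042 and Sun1 at 0.28, and with the length trend removed at 0.052 and 0.43. Emd stood at -0.21 with no run term and at -0.43 against run-1 fresh libraries alone, where Sun1 stood at 0.018. The cause of these turns was not tested. Genes called between cultured and fresh numbered 2780 with run 2 alone and 3337 to 6163 without 1 library (3402 without fresh replicate 4, 3337 without fresh replicate 5), against 5122. Between runs of fresh cells, 81 were called with no low-count filter, 921 by DESeq2 and 1 to 117 without 1 library, against 36. Of the 10 genes, 3 to 5 passed without 1 library. Sun1 ranged over -0.54 to 0.15 and the ratio of Syne3 to Syne2 over -0.49 to 0.80, of Sun2 to Sun1 over -1.66 to -0.0078 and of Lmna to Lmnb2 over -2.27 to -1.09. With the replicate number as a block, 2482 genes were called, Emd stood at -0.52 and Lmnb1 at 1.61 (adjusted p = 0.0811), and the 3 nesprins kept their calls; the numbers were not shown to pair samples. Depth limits Spag4 and Syne4, near or at 0 counts in culture.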
